A study of Sesuvium portulacastrum with 18 samples.

Results

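Shoots of Sesuvium portulacastrum after 24 h in 250 mM NaCl were compared with shoots collected at 0 h, to describe what differed from the start after a full day in salt. The comparison uses 6 of the 18 libraries of the series, 3 from 24 h and 3 from 0 h, and all expressed shoot transcripts: 40220 of 99653 listed passed the filter on low counts and were tested. All plants were raised from stem cuttings in liquid MS medium and were 15 days old when treatment began. The 24 h plants spent 24 h in medium containing 250 mM NaCl. For the 0 h plants the medium was replaced by control medium and the harvest followed immediately. No plants kept in control medium for 24 h stand beside the salt set, so the change of medium, the time since it and salt cannot be told apart. The labels do not state the clock hour of harvest. The third shoot group, 3 libraries from 8 h in NaCl, added to the model's estimate of the spread between replicates, and its levels are given for a few results.

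Sesuvium portulacastrum is a succulent halophyte, a plant that completes its life on saline ground. Sodium taken up by roots travels to the shoot in the transpiration stream. Halophyte leaves generally store sodium in vacuoles and balance it with organic solutes in the cytoplasm, which asks for ion transporters, proton pumps and enzymes of solute synthesis. The files name transcripts by an ID alone and pair no ID with a gene name, function or sequence, so no transcript can be given one of these roles here and the shoot label could not be checked against marker genes. The results are therefore ordered by the level, the size and the spread of the changes.

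The libraries held 10992886 to 12848624 estimated counts at 24 h and 10050233 to 15068602 at 0 h, and 99.1% to 99.3% of these fell on tested transcripts. Across tested transcripts, log2 levels correlated at 0.968 to 0.974 within the 24 h group, at 0.964 to 0.977 within the 0 h group and at 0.938 to 0.966 between the groups, where transcripts are not independent replicates. The first principal component of the 6 libraries held 40.0% of the variance and set all 24 h libraries (33.7 to 62.7) apart from all 0 h libraries (-71.4 to -22.8). Replicate 1 lay farthest out in both groups. The median coefficient of variation of the 12937 transcripts with a mean of at least 10 CPM was 9.04% at 24 h and 10.8% at 0 h. Levels below are the deposited normalized CPM (CPM, the count of a transcript relative to the library's total, scaled by 1 factor per library). Differences were tested with edgeR's quasi-likelihood method, and a transcript is called where its Benjamini-Hochberg adjusted p is under 0.05.

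The 2 rises described first were of more abundant transcripts than the 2 falls after them, and had smaller log2 fold changes in size. S_Transcript_77660.p1 had 6035, 6038 and 6238 CPM at 24 h, against 3494, 4254 and 4664 CPM at 0 h. Every 24 h library lay above every 0 h library, where groups without overlap were a condition for naming a transcript. The 24 h libraries lay closer together. The transcript averaged 6104 ± 116 CPM at 24 h and 4137 ± 594 CPM at 0 h (SD, n = 3 each), a log2 fold change of 0.58 (SE 0.12, edgeR adjusted p = 0.0148). It was the fifth most abundant tested transcript at 24 h. Without 24 h replicate 3 the log2 fold change was 0.56 and the call was lost (edgeR adjusted p = 0.0554), and over the 13 alternatives run the adjusted p lay between 6.84e-05 and 0.475.

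S_Transcript_11279.p1 had 3681, 3893 and 4216 CPM at 24 h, against 2504, 2397 and 2954 CPM at 0 h. The groups did not overlap and had a similar spread. Its mean was 3930 ± 269 CPM at 24 h and 2618 ± 295 CPM at 0 h (SD, n = 3 each), a log2 fold change of 0.60 (SE 0.10, edgeR adjusted p = 0.00401). The transcript stood 11th by level at 24 h and 17th at 0 h.

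S_Transcript_46163.p1 had 65.1, 80.1 and 88.7 CPM at 24 h, against 1314, 690 and 605 CPM at 0 h. All 24 h libraries were low, and 0 h replicate 1 was the highest of the 0 h libraries by a wide margin. The mean was 78.0 ± 12.0 CPM at 24 h and 870 ± 387 CPM at 0 h (SD, n = 3 each), a log2 fold change of -3.47 (SE 0.37, edgeR adjusted p = 0.000321). Leaving out 0 h replicate 1 gave -3.04. By level it stood at place 2399 at 24 h and at place 114 at 0 h.

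S_Transcript_84076.p1 had 179, 187 and 144 CPM at 24 h, against 791, 951 and 965 CPM at 0 h. The lowest 0 h library lay well above the highest 24 h library. It averaged 170 ± 23.0 CPM at 24 h and 902 ± 96.7 CPM at 0 h (SD, n = 3 each), with a log2 fold change of -2.40 (SE 0.13, edgeR adjusted p = 1.04e-05). These 4 transcripts are the rises and falls of largest mean difference in CPM among called transcripts whose groups did not overlap.

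**Figure D1:**
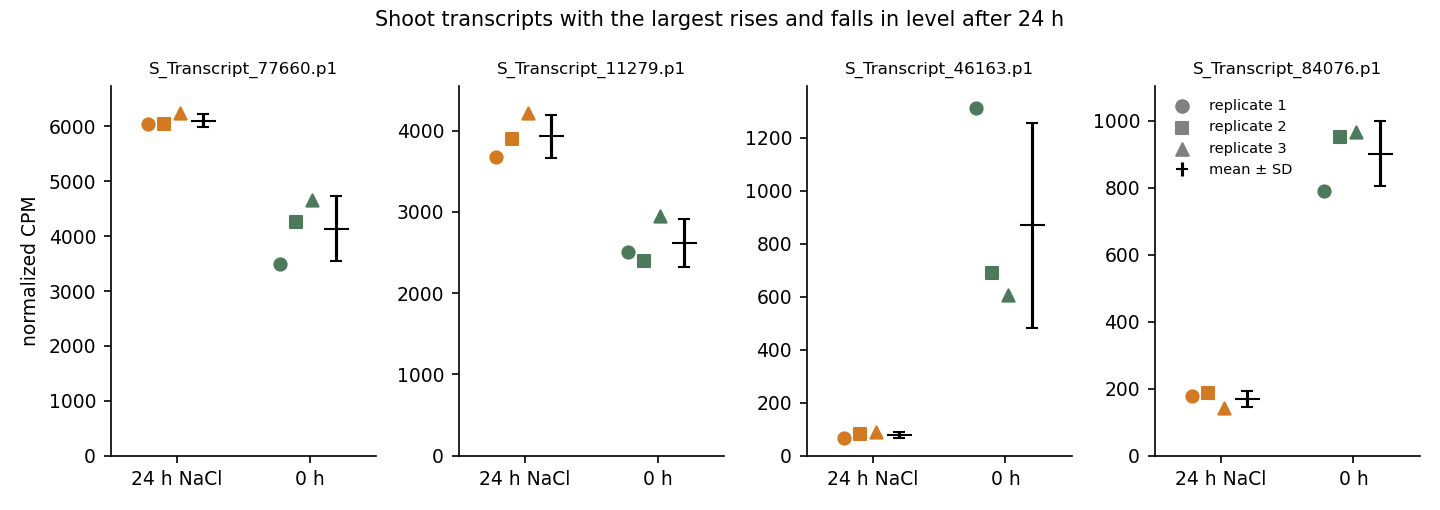
Normalized CPM (vertical axes, from 0, a separate scale per panel) of the 4 named transcripts in each shoot library, with 24 h in NaCl left of 0 h; symbols mark replicates, and black marks give mean ± SD of 3 libraries. S_Transcript_77660.p1 and S_Transcript_11279.p1 were higher at 24 h by less than 2-fold, while S_Transcript_46163.p1 and S_Transcript_84076.p1 fell by 3.47 and 2.40 on the log2 scale. No panel shows overlapping groups, which was a condition of the choice.

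At 8 h these transcripts had followed different paths. S_Transcript_77660.p1 stood at 1445 ± 242 CPM at 8 h (SD, n = 3), below its 0 h level (8 h over 0 h log2 fold change -1.53, edgeR adjusted p = 2.12e-06), in a comparison that called 25.8% of tested transcripts. S_Transcript_11279.p1 stood at 2633 ± 218 CPM (log2 fold change 0.00, edgeR adjusted p = 0.98). S_Transcript_46163.p1 stood at 128 ± 60.0 CPM and S_Transcript_84076.p1 at 142 ± 18.1 CPM, with log2 fold changes over 0 h of -2.79 and -2.68 (edgeR adjusted p = 0.000103 and 3.4e-08). Both time points are set against the same 0 h libraries.

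The next 10 rises in order of CPM difference had log2 fold changes of 0.41 to 4.44, and 3 of the 10 were at least 2-fold. Their means ran from 381 to 4671 CPM at 24 h and from 17.5 to 3442 CPM at 0 h. Counting the named pair, the transcript at place 4 of the rises had 1590, 1494 and 1300 CPM at 24 h, against 197, 306 and 236 CPM at 0 h (log2 fold change 2.58, SE 0.16, edgeR adjusted p = 1.91e-05). Its fold was larger than at the adjacent places 3 and 5 (log2 fold changes 0.46 and 0.72), though its CPM difference was not larger than at place 3. The largest log2 fold change of the 10, 4.44, was at place 10. The transcript at place 4 was singled out after its values were seen. The next 10 falls had log2 fold changes of -2.28 to -0.42, and 4 of them were at least 2-fold. Their means ran from 66.2 to 1307 CPM at 24 h and from 325 to 1846 CPM at 0 h. At 8 h, 9 of these 10 rises had a mean below their 0 h mean, as did 9 of these 10 falls, against 49.3% of all tested transcripts. All tested transcripts had a far lower level (median 3.98 CPM), and no set of like level was compared. Each library's own 10 most abundant transcripts held 3.28% to 3.33% of counts at 8 h and 5.25% to 6.47% at 0 h. The 8 h and 24 h values are set against the same 0 h libraries.

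Over the whole table, 2842 of 40220 transcripts (7.07%) were called, 1115 up (2.77%) and 1727 down (4.29%). In a bulk shoot sample, fewer cells of a type and less RNA per cell cannot be told apart. Whether called or not, 25% of transcripts had 24 h libraries wholly beyond the 0 h libraries, 11.6% above and 13.3% below. All 1115 transcripts called up had groups that did not overlap, as did 1719 of the 1727 called down. The median log2 fold change of all tested transcripts was 0.01, with quartiles of -0.27 and 0.28.

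The count of calls changed with the libraries in the fit. It was 1741, 1824 and 1878 without 24 h replicates 1, 2 and 3, and 2235, 1923 and 2633 without 0 h replicates 1, 2 and 3. A total of 1232 transcripts (43.3% of those called) were also called in each of these 6 fits, 446 up and 786 down. The smallest count among the alternatives run, 770, came with a covariate for how much of a library its 10 top transcripts took up (180 up and 590 down), 552 of them among the 2842. S_Transcript_77660.p1 and S_Transcript_11279.p1 were then not called (log2 fold changes 0.31 and 0.53, edgeR adjusted p = 0.475 and 0.121). S_Transcript_46163.p1 and S_Transcript_84076.p1 were still called (log2 fold changes -2.31 and -2.62, edgeR adjusted p = 0.0172 and 0.000127). By mean level S_Transcript_77660.p1 stood at place 5 at 24 h and 6 at 0 h, so its own counts are part of the covariate. The covariate was also higher in every 24 h library than in every 0 h library. Loss of a call in this fit is therefore partly built in. Over the 13 alternatives the adjusted p of S_Transcript_11279.p1 lay between 1.69e-07 and 0.121, that of S_Transcript_46163.p1 between 4.29e-19 and 0.0172, and that of S_Transcript_84076.p1 between 4.52e-67 and 0.000168.

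**Figure D2:**
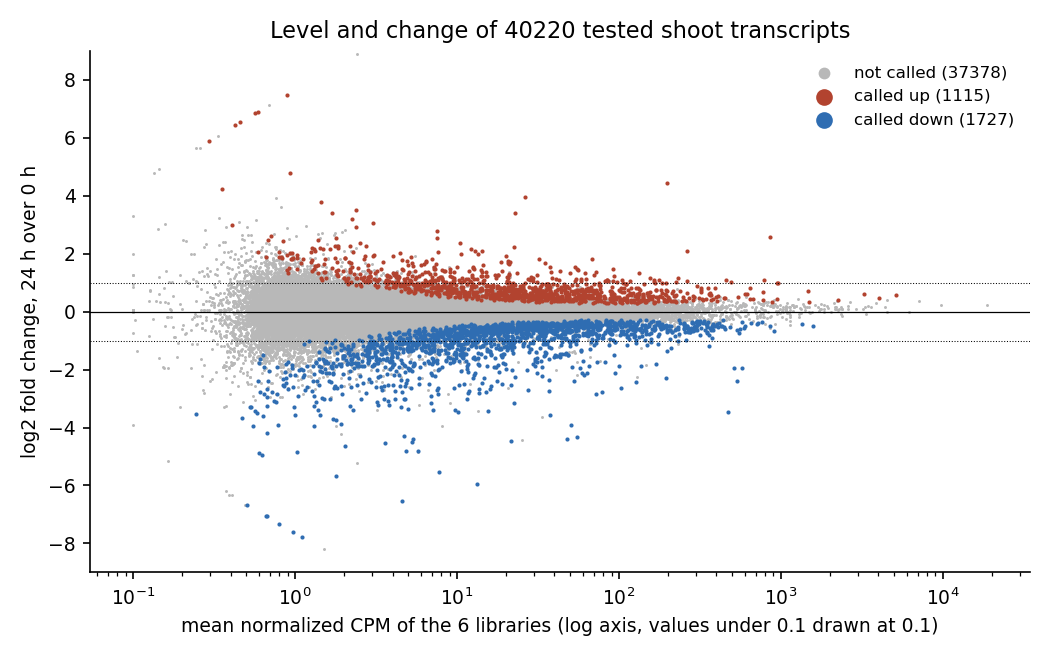
Log2 fold change of 24 h over 0 h (vertical axis) against mean normalized CPM of the 6 libraries (horizontal log axis) for 40220 shoot transcripts; dotted lines mark 2-fold. Of the 1115 transcripts called up 52 lie at 4-fold or more, as do 202 of the 1727 called down.

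Falls were larger than rises as well as more numerous. The median log2 fold change was 0.73 among transcripts called up (quartiles 0.53 and 1.07) and -0.84 among those called down (quartiles -1.41 and -0.57). At least 2-fold were 326 of the rises (29.2%, or 0.811% of tested transcripts) and 713 of the falls (41.3%, or 1.77%). At least 4-fold were 52 rises and 202 falls, and at least 8-fold 16 rises and 71 falls. Where both groups had a mean of 10 counts or more, so that the fold is measured on both sides, 17 rises and 95 falls reached 4-fold, and 3 rises and 17 falls reached 8-fold. These sizes come from the contrast that made the calls and are given as a description.

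Few called transcripts passed between near absence and a clear level. A single called transcript had a mean under 1 CPM at 0 h and at least 5 CPM at 24 h. Another 20 called transcripts had at least 5 CPM at 0 h and under 1 CPM at 24 h. Transcripts that met these limits without a call were not counted. S_Transcript_103248.p1, with 11.1 CPM at 0 h and 0.372 CPM at 24 h, is an example (edgeR adjusted p = 0.0786). Of 17 tested transcripts with no counts in any 0 h library, 6 were called, with means of 0.587 to 1.78 CPM at 24 h. Those means were 6.99-fold to 21.2-fold the level of 3 counts over the 0 h group. Of 15 with no counts in any 24 h library, 6 were called, with means of 1.01 to 2.22 CPM at 0 h. Those means were 11.5-fold to 25.2-fold the level of 3 counts over the 24 h group. The 3 counts allow for counting error only and the means are taken as observed, so these folds are rough. Over all tested transcripts, 2.77% were called up and 4.29% down. A transcript with no counts in 1 group could pass the filter on low counts only through the other times, 8 h among them. The counts of calls in these 2 sets are therefore shaped by the filter and are given as a description. All of these called transcripts were low, and each had counts at 8 h.

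Changes were called more often at higher levels, where the test is more precise. Of transcripts with a mean of 300 CPM or more, 10.1% were called up and 14.1% down, against 0.466% and 0.828% of those under 1 CPM. The median standard error of the log2 fold change was 0.10 in the first class and 0.53 in the second. The share called down exceeded the share called up in all 7 level classes. Calls of at least 2-fold climbed with level up to 3 to 10 CPM and were less frequent in every class above. Falls of that size made up 0.828% of transcripts under 1 CPM, 2.65% at 3 to 10 CPM and 2.32% at 10 to 30 CPM. They made up 1.54% at 30 to 100 CPM and 1.17% at 300 CPM or more. Rises made up 0.466%, 1.07%, 0.93%, 0.68% and 0.937% in the same classes.

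**Figure D3:**
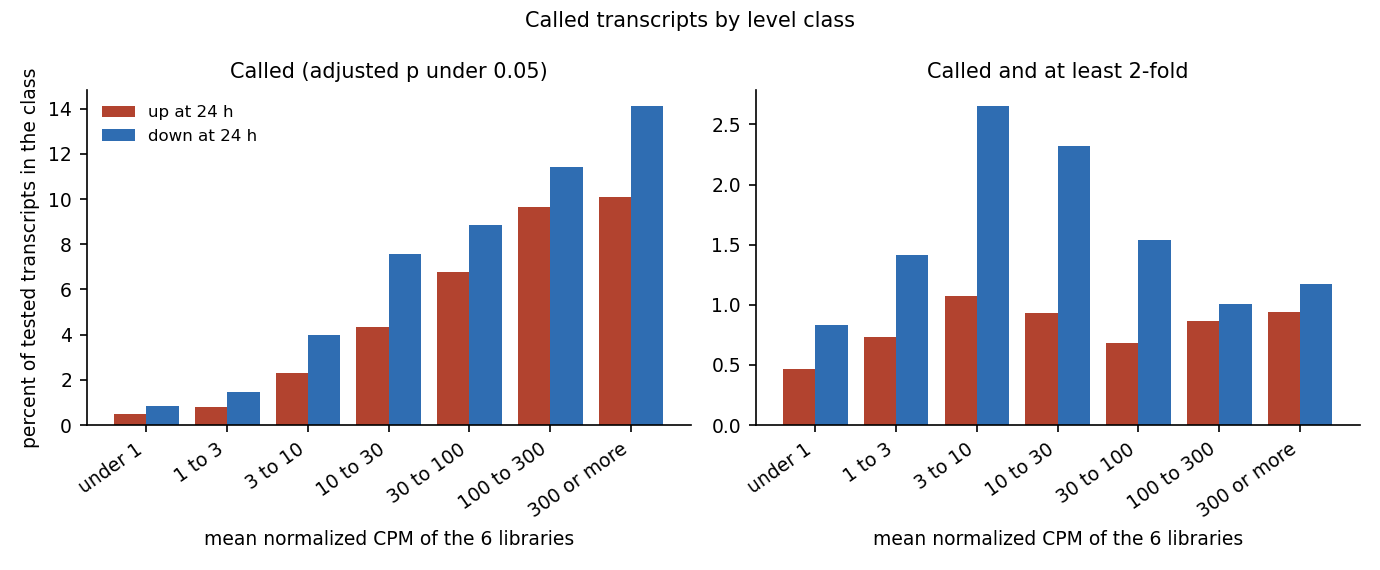
Percent of tested transcripts called up and called down (vertical axes, from 0, different scales) in 7 classes of mean normalized CPM, on the left for all calls and on the right for calls of at least 2-fold. All calls climb with level to 10.1% up and 14.1% down, while 2-fold falls are most frequent at 3 to 10 CPM, with 2.65%.

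For most well measured transcripts a 2-fold change lay outside the interval of the estimate. The 95% interval of the log2 fold change, from its standard error and the model's degrees of freedom, lay wholly within 2-fold either way for 22904 transcripts (56.9%). The share was 32.8% at 1 to 3 CPM, 73.8% at 3 to 10 CPM, 87.7% at 10 to 30 CPM and 94.4% at 300 CPM or more. For 2 transcripts no interval could be computed, and for the others it reached 2-fold or beyond.

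No transcript among the 100 of highest mean over the 6 libraries was called with a change of 2-fold or more. The largest rise among them was called and fell just short, with a log2 fold change of 0.999. The ranking uses the mean of both times. The transcript at place 4 of the rises, with means of 1461 CPM at 24 h and 246 CPM at 0 h, lay outside these 100. Of the top 10, 2 were called, both up by less than 2-fold, and all 10 had intervals within 2-fold. The single most abundant transcript had 21181, 19335 and 20079 CPM at 24 h, against 14646, 17022 and 20343 CPM at 0 h. The groups overlapped through 0 h replicate 3, and the log2 fold change of 0.24 (SE 0.11) did not pass the test (edgeR adjusted p = 0.244). Among the top 100, 7 were called up (7%) and 2 down (2%), against 2.77% and 4.29% of all tested, 76 had a positive log2 fold change, against 50.8% of all tested, and 98 had intervals within 2-fold. Among the top 1000, 99 were called up (9.9%) and 136 down (13.6%), against the same 2.77% and 4.29%.

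The library's own 10 most abundant transcripts held 7.27%, 6.86% and 6.93% of counts at 24 h, against 5.25%, 6.08% and 6.47% at 0 h. All 24 h libraries lay above all 0 h libraries (exact permutation test, two-sided, p = 0.1 with 3 libraries a side, the smallest this design allows, and 0.25 after Benjamini-Hochberg adjustment over 5 library measures). The own 100 most abundant held 21.8 ± 0.197% at 24 h and 19.8 ± 1.37% at 0 h (exact permutation p = 0.1, adjusted 0.25). The number of transcripts with at least 1 count was 66396 ± 1216 at 24 h and 67847 ± 221 at 0 h (exact permutation p = 0.2, adjusted 0.333). This concentration of counts moves with the comparison, and beyond the covariate fit given above its part in the calls was not tested.

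Transcripts called up held 9.72%, 9.19% and 9.41% of all counts at 24 h, against 5.81%, 6.40% and 6.17% at 0 h. Those called down held 6.15%, 6.56% and 6.50% at 24 h, against 11.1%, 10.2% and 10.2% at 0 h. In both sets replicate 1 of each group lay on the outer side. The gain was concentrated in fewer transcripts than the loss. Summed over the set, called rises went with a gain of 35039 CPM, of which the 10 largest made up 26.3% and 58 transcripts (5.2% of the set) made up 50%. Called falls together decreased by 42820 CPM, of which the 10 largest made up 11.8%, and 148 transcripts (8.57%) made up 50%. The members were chosen by the same contrast, so these shares carry no test.

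**Figure D4:**
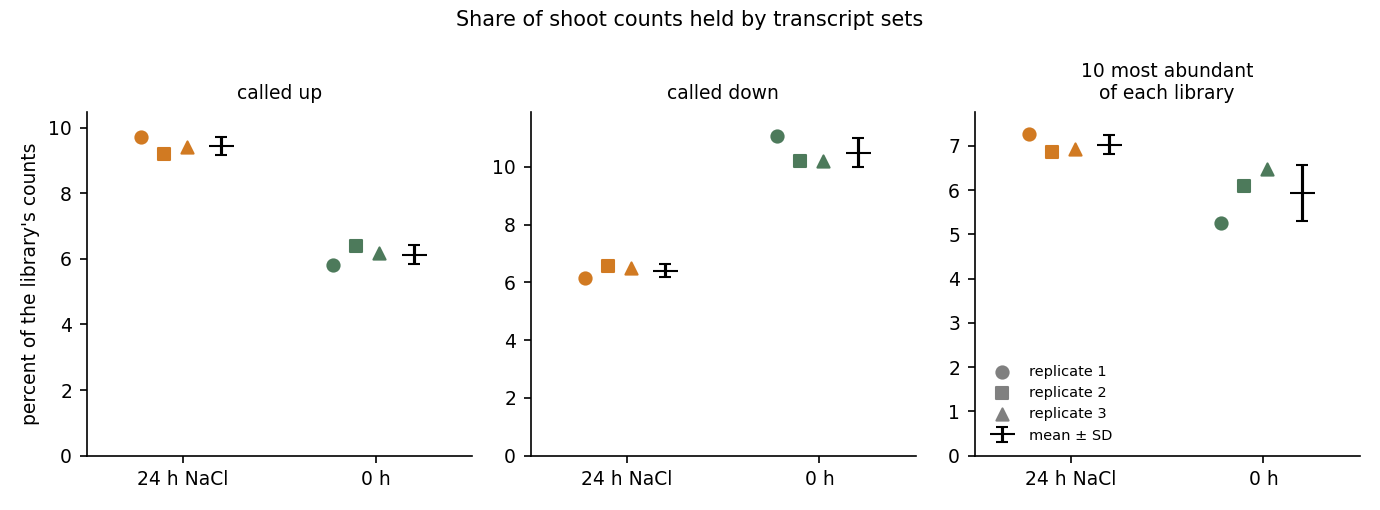
Percent of each library's counts (vertical axes, from 0) held by transcripts called up, by transcripts called down and by the library's own 10 most abundant transcripts, with 24 h in NaCl left of 0 h; symbols mark replicates, black marks mean ± SD of 3 libraries. Rises held 9.19% to 9.72% of counts at 24 h and 5.81% to 6.40% at 0 h, and the top-10 share of 0 h replicate 1, at 5.25%, is the lowest of the 6.

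The 0 h libraries did not contribute alike. Among transcripts called up, 0 h replicate 1 was the lowest 0 h library for 661 of 1115 (59.3%), against 39.1% of all tested transcripts. Among those called down it was the highest for 755 of 1727 (43.7%), against 35.6% of all tested. At 24 h, replicate 1 was the lowest for 48.1% of transcripts called down, against 36.1% of all tested, and the highest for 41.7% of those called up, against 33.8%. Without 0 h replicate 1 the calls numbered 2235, of which 1937 were among the 2842. Fewer of the 2842 were kept without 0 h replicate 2 (1794) and more without 0 h replicate 3 (2099). Without 24 h replicates 1, 2 and 3, 1618, 1692 and 1712 were kept. Among the 0 h libraries, the one most often outermost was thus not the one whose removal cost the most calls. Among the 24 h libraries, replicate 1 was both, and its removal kept the fewest calls of all 6 libraries. The called transcripts were chosen by the same contrast, so these shares carry no test.

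At 8 h the transcripts called up at 24 h were spread widely around their 0 h level, while most of those called down lay below it. Those called up at 24 h had a median log2 fold change of -0.09 at 8 h over 0 h (quartiles -0.93 and 0.55), beside 0.73 at 24 h. Those called down at 24 h had a median of -0.38 at 8 h (quartiles -0.93 and 0.06), beside -0.84 at 24 h. Over all tested transcripts the 8 h median was 0.00, with quartiles of -0.41 and 0.36. The 2 comparisons share the 0 h libraries.

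Called transcripts with consecutive ID numbers tended to be called in the same direction. Of the 1115 called up, 353 had a tested transcript with the next lower or next higher number, and for 99 of these (28%) such a neighbour was called up, against 5 (1.42%) with a neighbour called down. Of the 1727 called down, 402 had a tested neighbour, and 121 (30.1%) had one called down, against 5 (1.24%) with one called up. Over all tested transcripts with a neighbour, 3.52% had one called up and 3.9% one called down. The rises carry 1099 distinct numbers and the falls 1722, of which 98 and 120 lie in runs of consecutive numbers, no longer than 3. What consecutive numbers share, whether a gene, a copy or nothing, is stated neither in the labels nor in the files. Transcripts that are nearly identical may divide their reads among several IDs.

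**Figure D5:**
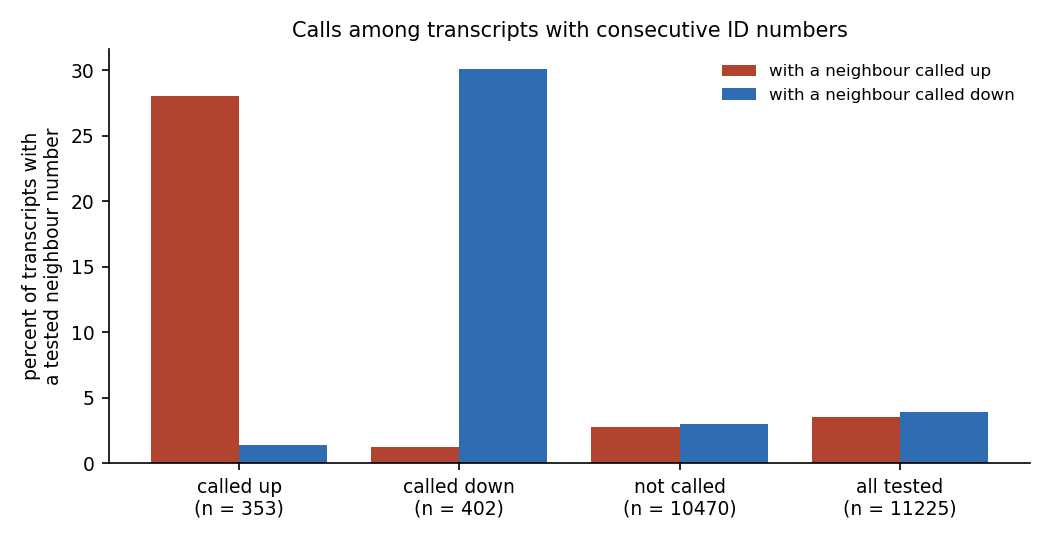
Percent of transcripts (vertical axis, from 0) that have a neighbour called up or called down, among transcripts with a tested neighbour by ID number, for those called up, called down, not called and all tested; n counts transcripts with a tested neighbour. A neighbour called the same way is present for 28% of rises and 30.1% of falls, against 3.52% and 3.9% of all tested.

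The shares called are given by the suffix of the ID, beside 2.77% up and 4.29% down of all tested. IDs ending in p1 made up 86.2% of tested transcripts, and 2.89% of them were called up and 4.66% down. Of IDs ending in p2, 2.18% were called up and 2.26% down, and of those with higher suffixes 1.69% and 1.45%. The median level was 4.66 CPM for p1, 2.16 CPM for p2 and 1.87 CPM for the higher suffixes, so the classes also differ in level. The difference between suffixes and the part of level in it were not tested.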

How the data were processed

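RNA of Sesuvium portulacastrum shoots was sequenced from 3 libraries each at 24 h, 8 h and 0 h. Libraries were made with a strand-keeping kit, per the labels' protocols. Trimmomatic, kallisto 0.45 and edgeR 3.40.1 are listed in the submitters' processing notes, with no step assigned to them. The estimated counts were deposited by the authors as whole numbers, so rounding changed nothing. The second deposited table is a normalized signal: each value is the CPM of the counts times 1 factor per library. No source used here describes the transcript assembly. Replicates of a group differed by more than counting noise (chi-square per degree of freedom of 3.59 to 11.2). Each table column was matched to 1 library by its label.

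In R 4.3.3, transcripts were filtered by filterByExpr (minimum count 10), scaled by TMM and fitted over all 9 shoot libraries with edgeR 4.0.16 (glmQLFit, glmQLFTest, 1 mean per time, contrast 24 h minus 0 h, two-sided, Benjamini-Hochberg over 40220 transcripts). The standard error is the absolute log2 fold change over the root of F, and log2 levels for correlations used a pseudocount of 0.5 CPM. The biological coefficient of variation was 0.169. A count of 0 in 1 of the 6 libraries compared allows 3 counts, for counting error only. That is 0.199 to 0.299 CPM before the library's factor is applied. DESeq2 1.42.0 was an alternative. Since the files name no genes, the rule for unnamed transcripts applied: the 2 rises and 2 falls of largest CPM difference among called transcripts without overlap. The model was tested on simulated data. The comparison and its rules were chosen with earlier results of these data known. Root libraries were not used here.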

Additional observations from a re-analysis of the deposited data

How the results depend on the processing

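Without 1 library in turn the counts ran from 1741 to 2633 called, 669 to 1025 up, 1068 to 1608 down, and 234 to 323 rises and 538 to 773 falls of at least 2-fold. A fit of only the 6 compared libraries, with fewer degrees of freedom by construction, called 1688 (696 up, 992 down). The spread also differs: the biological coefficient of variation was 0.169 over the 9 libraries, 0.168 within 24 h alone and 0.208 within 0 h alone. The main count thus leans on the 8 h libraries, and what made the difference in calls was not tested. The adjusted p under 0.01, stricter by construction, gave 1033 (375 up, 658 down), with 164 rises and 378 falls of at least 2-fold. Without the filter on low counts 2611 fell, and 490 rises and 1265 falls were at least 2-fold, over a larger table. With the covariate for the top-10 share the calls numbered 770 (180 up, 590 down), 118 rises and 434 falls of them at least 2-fold. That share differs between the times, and the cause was not tested.

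With replicate number as a block, 1906 were called, of which 735 rose. Deviations of same-numbered libraries at 24 h and 0 h correlated at r of -0.161, 0.043 and -0.087. Of the 3 libraries at 24 h, 1 correlated best with its own number. Deviations taken within groups of 3 libraries leave few free values, so whether same-numbered libraries were handled together cannot be told from these.

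DESeq2's size factors in edgeR called 2823, library size alone 2883 and DESeq2's own test 3364 (10933 transcripts got no adjusted p there). These calls include 2778, 2737 and 2625 of the 2842, all in the same direction. Of the 4 named transcripts, S_Transcript_46163.p1 and S_Transcript_84076.p1 kept their call in every alternative run. S_Transcript_77660.p1 lost it without 24 h replicate 3 and with the covariate, and S_Transcript_11279.p1 with the covariate only. The counts of S_Transcript_77660.p1 are themselves part of that covariate. Depth limits the low transcripts most: under 1 CPM the median standard error was 0.53.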
